A study of Mus musculus with 4 samples.

Results

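A set of 10 genes from 2 cytoprotective programmes, of 12393 genes on the array, was followed in sorted hair follicle cells labelled as Tbx1 conditional knockout or as wild type. Of the 10, 8 are targets of the transcription factor NRF2 (Nqo1, Hmox1, Gclc, Gclm, Txnrd1, Srxn1, Gstm1 and Gsta4) and 2 encode metallothioneins (Mt1 and Mt2). They were chosen by name, as every probe set whose only gene symbol on the platform was one of them, which gave 20 probe sets. One group was the conditional knockout (cKO) of Tbx1, a T-box transcription factor gene, and the other was wild type (WT). The mice were females of strain CD1/C57BL/6, aged about P60, and cells of the back skin were sorted on YFP, integrin α6 and CD34. Each genotype had 2 arrays, one in set 2 and one in set 1. By the treatment text, hair was removed with wax 48 h ahead of harvest in all 4 cases. The descriptions name set 2 activated and set 1 quiescent, which the labels do not reconcile, so sets are given by number. The sources used here do not give the Cre driver or the number of animals behind each array. The p-values thus cover the spread between arrays alone, and that spread may be technical.

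NRF2 is held at a low level by KEAP1, which hands it over for degradation. Oxidants and electrophiles modify KEAP1, and NRF2 then enters the nucleus, pairs with a small MAF protein and binds antioxidant response elements near genes for glutathione synthesis, thioredoxin recycling and detoxification. Metallothioneins are small cysteine-rich proteins that bind zinc, copper and cadmium. Their genes are switched on through metal response elements by the zinc-sensing factor MTF1, and also respond to glucocorticoids and oxidative stress. In skin both systems are known for buffering keratinocytes against oxidants, ultraviolet light and metals.

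Mt1 and Mt2 lie next to each other on mouse chromosome 8, beside Mt3 and Mt4. RefSeq start-site windows (build GRCm38.p6, 250 bases before to 50 after the start) were at hand for 7 of the 10 genes. The metal response element core was searched as TGCGCNC or TGCACNC on both strands and was found 3 times in the Mt1 window and 4 times in the Mt2 window, counting either strand. Of these, the Mt1 matches 2 and 20 bases after the start and the Mt2 match 4 bases after it lay downstream. Of all 32851 windows, 25.7% held the core at least once and 1.97% at least 3 times. The window of the NRF2 target Gclm also held 3, that of Srxn1 held 1, and those of Nqo1 and Txnrd1 held none. The 2 Gstm1 windows overlap and held the same 1 match. The Mt1 and Mt2 windows are shown because these genes are neighbours known to answer to the same metal sensor. Capitals mark the matches, 5′ to 3′ on the gene's strand. Mt1 is at chr8:94178839-94179138 (plus strand) and Mt2 at chr8:94172368-94172667 (plus strand).
Mt1: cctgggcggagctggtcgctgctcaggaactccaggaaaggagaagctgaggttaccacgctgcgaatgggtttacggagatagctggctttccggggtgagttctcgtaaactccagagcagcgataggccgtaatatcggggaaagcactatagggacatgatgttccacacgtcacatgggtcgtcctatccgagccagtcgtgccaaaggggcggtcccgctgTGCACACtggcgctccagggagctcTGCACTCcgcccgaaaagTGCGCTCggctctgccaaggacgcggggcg
Mt2: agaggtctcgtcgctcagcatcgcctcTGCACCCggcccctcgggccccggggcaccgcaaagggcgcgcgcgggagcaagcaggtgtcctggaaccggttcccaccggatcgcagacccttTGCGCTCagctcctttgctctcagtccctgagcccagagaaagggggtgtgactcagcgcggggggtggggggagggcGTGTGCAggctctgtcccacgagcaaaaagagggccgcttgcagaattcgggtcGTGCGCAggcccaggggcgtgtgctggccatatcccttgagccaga

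The antioxidant response element core was searched as TGACNNNGC on both strands, and 12.4% of all windows held it. Gclm, Srxn1 and 1 of 3 Txnrd1 windows each held 1 match, as did Mt2. They are shown because Gclm and Srxn1 read higher in cKO cells and Txnrd1 lower, and capitals mark the match, which runs on the opposite strand in all 3. Gclm is at chr3:122245307-122245606, Srxn1 at chr2:152105274-152105573 and Txnrd1 at chr10:82858956-82859255, all on the plus strand.
Gclm: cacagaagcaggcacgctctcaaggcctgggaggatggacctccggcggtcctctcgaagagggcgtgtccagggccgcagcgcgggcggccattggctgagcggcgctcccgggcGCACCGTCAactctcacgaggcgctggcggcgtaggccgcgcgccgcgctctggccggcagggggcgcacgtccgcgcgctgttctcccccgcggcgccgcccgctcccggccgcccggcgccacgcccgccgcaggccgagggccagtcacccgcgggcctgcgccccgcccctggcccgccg
Srxn1: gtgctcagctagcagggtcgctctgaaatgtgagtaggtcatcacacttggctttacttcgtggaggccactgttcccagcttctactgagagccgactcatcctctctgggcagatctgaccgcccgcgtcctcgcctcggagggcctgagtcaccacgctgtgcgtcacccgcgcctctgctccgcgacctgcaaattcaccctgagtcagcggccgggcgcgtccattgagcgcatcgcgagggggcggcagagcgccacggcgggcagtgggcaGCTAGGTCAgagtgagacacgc
Txnrd1: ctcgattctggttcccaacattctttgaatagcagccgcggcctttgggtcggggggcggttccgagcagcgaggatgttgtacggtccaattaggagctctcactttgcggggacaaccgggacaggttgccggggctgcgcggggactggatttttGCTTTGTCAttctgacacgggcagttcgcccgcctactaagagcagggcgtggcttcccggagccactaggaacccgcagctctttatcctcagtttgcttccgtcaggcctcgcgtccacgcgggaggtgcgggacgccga
The Gclm match overlaps a metal response element core, and the Mt2 match, 79 bases before the start, overlaps an AP-1 site (TGANTCA, found in 7.81% of windows). The Srxn1 match lay 28 bases after the start, and those of Gclm and Txnrd1 lay before it. Srxn1 held 2 AP-1 sites elsewhere in its window, with no overlap. The windows of Nqo1, Gstm1 and Mt1, and the other Txnrd1 windows, held no antioxidant response element core in these letters. A match is a description of the letters only.

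The arrays were comparable in scale, with median log2 intensities of 6.36 to 6.38. All 11 listed markers of the hair follicle bulge, among them Cd34, Krt15, Sox9 and Lgr5, had a mean above the limit for dim genes, log2 5.40, which is percentile 40 of all probe sets. Tbx1 read 8.88 and 9.54 on the cKO arrays of set 2 and set 1, against 10.37 and 10.53 on the WT arrays, a difference of -1.24 (SE 0.26) with a limma adjusted p of 0.272 when each probe set was tested on its own. Whether this probe set lies within the deleted part of the gene is unknown here. Some arrays stood apart. The cKO set 1 array had a 3′ minus 5′ difference of 2.95 for the added Dap control, against 1.74 to 1.82 elsewhere. Malat1, a nuclear noncoding RNA, was highest on the WT set 2 array at 12.35, while elsewhere it lay between 9.80 and 10.56. The fit over all 8031 genes above the dim limit called 7 between genotypes (0.0872% of genes).

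Of the 10 genes 9 passed the filter on dim genes and were tested. Of these 9, 6 (Nqo1, Gclm, Srxn1, Gstm1, Mt1 and Mt2) had both cKO values above both WT values, 2 (Gclc and Txnrd1) had both below, and Gsta4 went in opposite directions in the 2 sets. None of the 9 tested members passed limma's test at an adjusted p under 0.05, where 0.0872% of all genes did (0.0249% higher in cKO and 0.0623% lower). With the set as a replicate block limma again called 0 of them, against 1.03% of all genes. At an unadjusted p under 0.05, limma gave 3 members (Gclc, Txnrd1 and Nqo1), against 14.2% of all genes (8.37% higher in cKO and 5.79% lower). Groups did not overlap for 8 of the 9, where 46.6% of all genes did not overlap (26.7% higher in cKO and 19.9% lower). Groups that do not overlap must differ in 1 direction within both sets, so that direction adds nothing for these 8 (63.7% of all genes had 1 direction in both sets). The tested members had a median difference of 0.31 on the log2 scale, 0.38 within set 2 and 0.16 within set 1, against 0.029 over all tested genes. With 2 arrays against 2, an exact two-sided permutation test of 1 value cannot go below p = 0.333. Fewer cells of a type and less RNA per cell cannot be told apart in these bulk sorts.

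**Figure D1:**
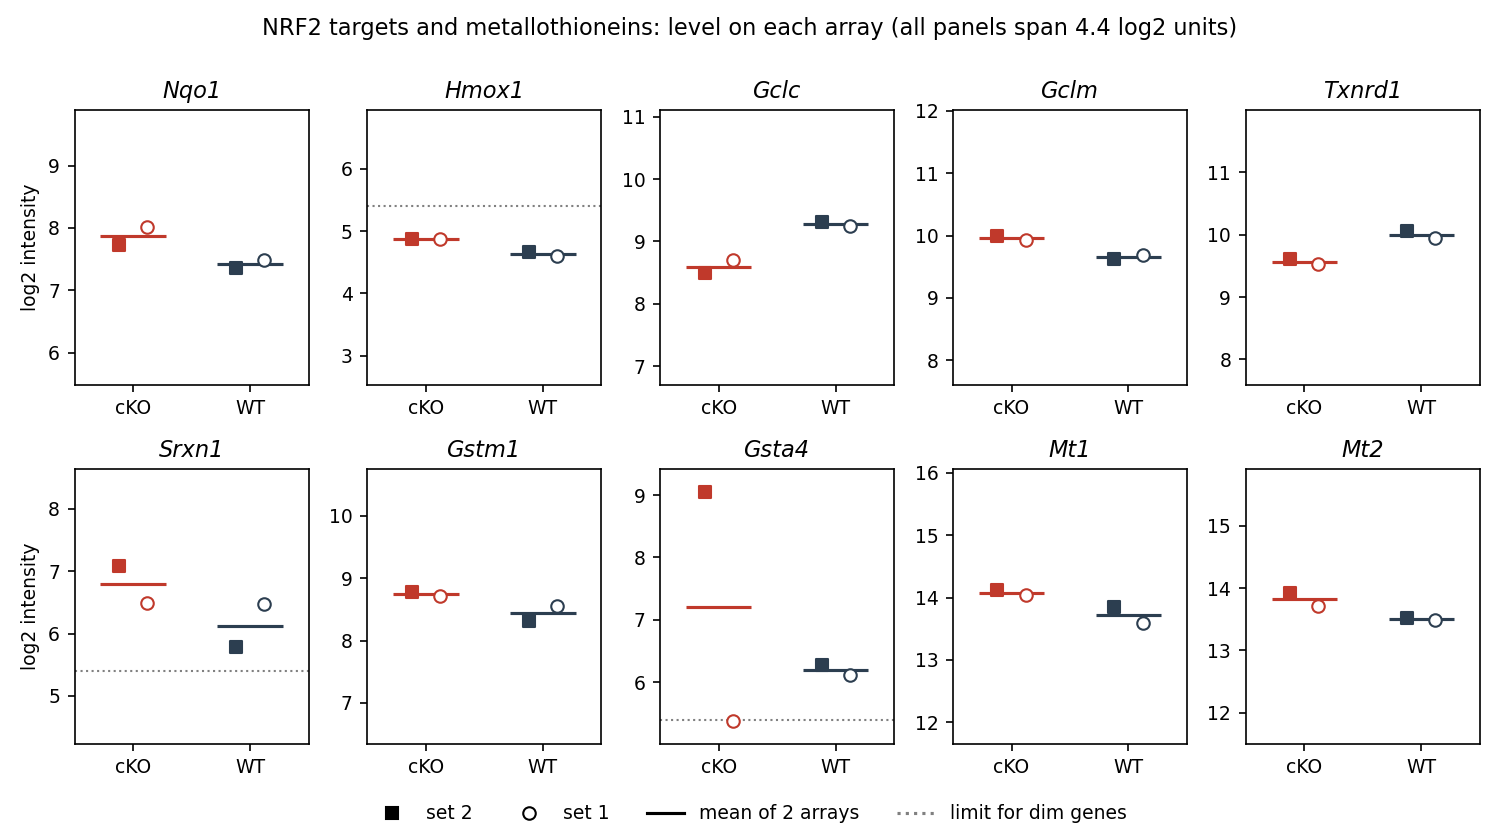
Log2 intensity on each array for the 10 genes (the probe set with the highest mean for each), cKO left of WT, with squares for set 2, open circles for set 1 and a line at the mean of 2 arrays; each panel spans 4.4 log2 units. Gclc and Txnrd1 lie lower on both cKO arrays, Nqo1, Gclm, Mt1 and Mt2 lie higher, and Gsta4 stands at 9.05 on the cKO set 2 array alone.

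Glutathione is made in a first, rate-limiting step by glutamate-cysteine ligase, which pairs the catalytic subunit GCLC with the modifier subunit GCLM. The 2 subunit genes differed in opposite directions. Gclc (1424296_at) read 8.50 and 8.70 on the cKO arrays of set 2 and set 1, against 9.31 and 9.24 on the WT arrays. The gap between the genotypes was wider than the gap between the arrays of either genotype. The means were 8.60 ± 0.14 in cKO and 9.28 ± 0.048 in WT (SD, n = 2), so that the cKO signal was 62.4% of WT. The difference of -0.68 (SE 0.16, 95% interval -1.09 to -0.28) had a limma adjusted p of 0.221 and lay lower than that of all but 2.68% of tested genes. The 95% intervals given here and below are not adjusted for the number of genes tested. A second Gclc probe set (1455959_s_at) lay in the same direction, at 8.26 and 8.48 in cKO, against 8.92 and 9.06 in WT (difference -0.62).

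Gclm (1418627_at), the modifier subunit that raises the enzyme's affinity for glutamate, read 10.002 and 9.93 on the cKO arrays of set 2 and set 1, against 9.62 and 9.69 on the WT arrays. The groups did not overlap, with means of 9.97 ± 0.049 in cKO and 9.66 ± 0.05 in WT (SD, n = 2). The difference of 0.31 (SE 0.16, 95% interval -0.070 to 0.69) had a limma adjusted p of 0.432. For Gclm, cKO minus WT was 0.38 within set 2 and 0.24 within set 1, and for Gclc it was -0.81 and -0.55. Both genes were measured on the same arrays, and the contrast between the 2 subunits was noticed in these values and not tested.

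Txnrd1 (1421529_a_at), cytosolic thioredoxin reductase, read 9.61 and 9.53 on the cKO arrays of set 2 and set 1, against 10.07 and 9.94 on the WT arrays. The cKO signal was 74.0% of WT, at means of 9.57 ± 0.056 in cKO and 10.003 ± 0.088 in WT (SD, n = 2). The difference of -0.44 (SE 0.16, 95% interval -0.83 to -0.045) had a limma adjusted p of 0.324, and within the sets it was -0.46 in set 2 and -0.41 in set 1. A second Txnrd1 probe set, close to the dim limit, differed by -0.46 with groups apart. The third lay below the dim limit on all 4 arrays, and its groups overlapped.

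Srxn1 (1426875_s_at), sulfiredoxin, which repairs over-oxidised peroxiredoxins, read 7.09 and 6.49 on the cKO arrays of set 2 and set 1, against 5.78 and 6.47 on the WT arrays. The sets differed in size: cKO exceeded WT by 1.30 within set 2 and by 0.016 within set 1. The mean difference was 0.66 (SE 0.31, 95% interval -0.095 to 1.42, limma adjusted p = 0.409). It was 0.31 if WT set 2 was left out, 0.36 if cKO set 2 was, and 1.01 if WT set 1 was. Of the other Srxn1 probe sets, 1 above the dim limit differed by 0.28 within set 2 and 0.20 within set 1, and 2 had a mean level below the limit. The second probe set did not share the wide gap of set 2.

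**Figure D2:**
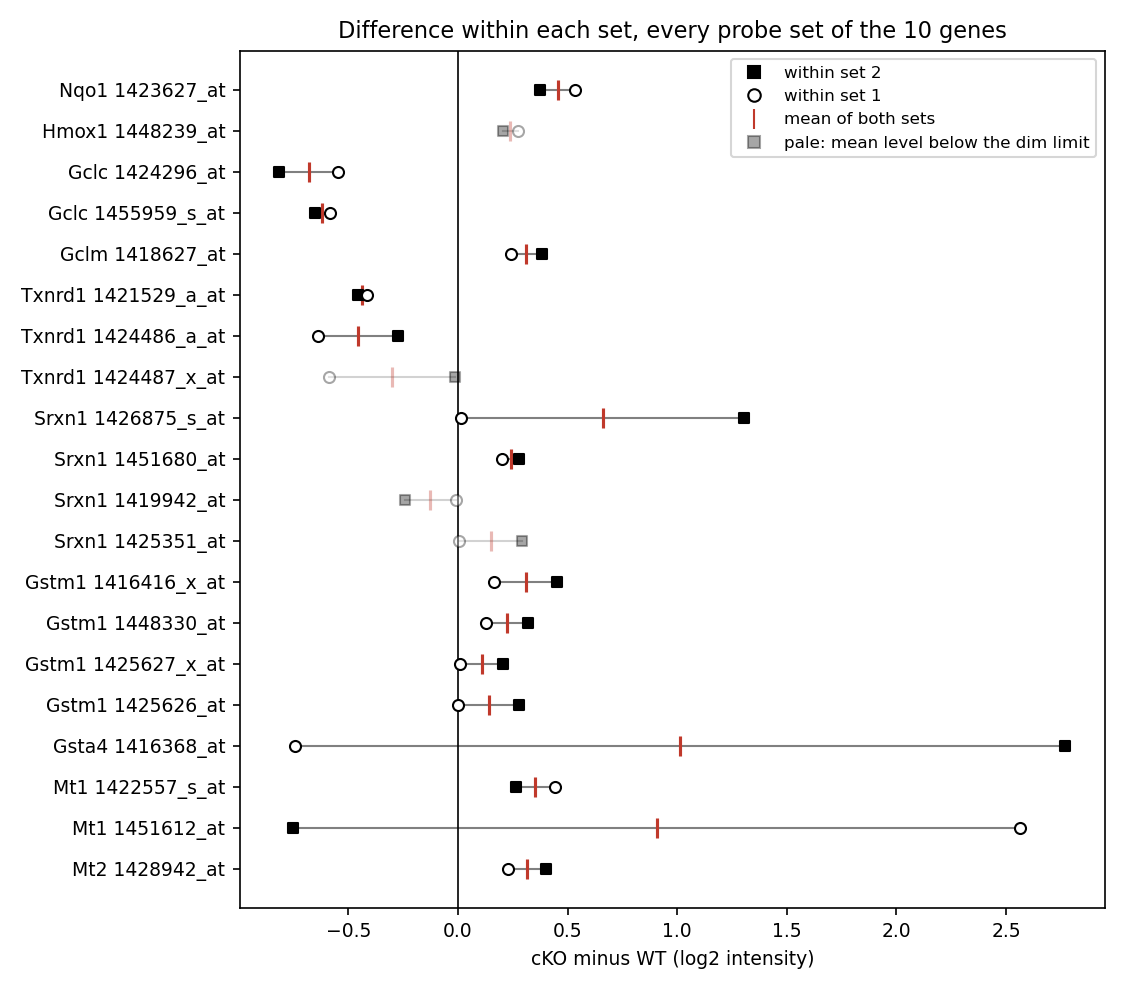
The cKO minus WT difference on the log2 scale for all 20 probe sets of the 10 genes, with squares for set 2, open circles for set 1 and a red bar for their mean; pale rows had a mean level below the dim limit. Both Gclc probe sets lie between -0.81 and -0.55 in both sets, whereas Gsta4 and the second Mt1 probe set change sign between the sets.

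Among the detoxifying enzymes, Nqo1 and Gstm1 read higher on the cKO arrays of both sets. Nqo1 (1423627_at), a quinone reductase and the standard reporter of NRF2 activity, read 7.73 and 8.02 on the cKO arrays of set 2 and set 1, against 7.35 and 7.48 on the WT arrays. The cKO arrays lay above both WT arrays, at means of 7.88 ± 0.21 in cKO and 7.42 ± 0.092 in WT (SD, n = 2), or 1.37-fold. The difference of 0.46 (SE 0.18, 95% interval 0.016 to 0.89) had a limma adjusted p of 0.341, with 0.37 within set 2 and 0.54 within set 1.

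Gstm1 (1416416_x_at), a glutathione S-transferase of the mu class, read 8.77 and 8.72 on the cKO arrays of set 2 and set 1, against 8.32 and 8.56 on the WT arrays. The difference was 0.31 (SE 0.17, 95% interval -0.11 to 0.72, limma adjusted p = 0.466), 0.45 within set 2 and 0.16 within set 1. Its other 3 probe sets differed by 0.23, 0.14 and 0.11. The one that differed by 0.14 held the same value of 6.41 on 3 arrays and 6.13 on the WT set 2 array. Mu-class genes are closely related in sequence, and 2 of the 4 probe sets carry the suffix that marks probes shared with other transcripts, so signal of relatives may enter these values. Hmox1 (1448239_at), haem oxygenase, lay below the dim limit on all 4 arrays, at 4.87 and 4.87 in cKO and 4.67 and 4.60 in WT, and was not tested. No fold is given for it.

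Gsta4 (1416368_at), an alpha-class glutathione S-transferase that clears the lipid peroxidation product 4-hydroxynonenal, had the largest range of the 10 genes over the 4 arrays. It read 9.05 on the cKO set 2 array and 5.37 on the cKO set 1 array, just below the dim limit, against 6.28 and 6.12 on the WT arrays. The cKO set 2 array alone was high, and both WT arrays lay between the 2 cKO arrays. Within set 2, cKO was 6.83-fold above WT (log2 2.77), and within set 1 the difference was -0.75. Over all arrays the difference was 1.01 (SE 1.09, limma adjusted p = 0.715), with a 95% interval of -1.66 to 3.68. Without the cKO set 1 array limma called it (difference 2.85, adjusted p = 0.0239), a fit with 1 cKO array that is taken to vary like the WT arrays, and without the cKO set 2 array the difference was -0.83 (adjusted p = 0.545). The gene has 1 probe set, so no second measurement of the same arrays was at hand.

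By 1 probe set each, Mt1 and Mt2 had both cKO values above both WT values, and neither passed limma's test. Mt1 (1422557_s_at) read 14.11 and 14.04 on the cKO arrays of set 2 and set 1, against 13.85 and 13.60 on the WT arrays. Mt2 (1428942_at) read 13.92 and 13.71 on the cKO arrays, against 13.52 and 13.49 on the WT arrays. The difference for Mt1 was 0.35 (SE 0.17, 95% interval -0.067 to 0.77, limma adjusted p = 0.423). For Mt2 it was 0.31 (SE 0.16, 95% interval -0.090 to 0.72, limma adjusted p = 0.45). Within set 2 and set 1 the differences were 0.27 and 0.44 for Mt1, and 0.40 and 0.23 for Mt2.

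A second Mt1 probe set (1451612_at) gave another pattern. It read 8.23 and 10.26 on the cKO arrays of set 2 and set 1, against 8.98 and 7.70 on the WT arrays. The genotypes overlapped, and the difference was -0.75 within set 2 and 2.56 within set 1. Its highest value was on the cKO set 1 array, the one with the largest 3′ minus 5′ difference of the added control, whose part in the value was not tested. Over all arrays it differed by 0.91 (SE 0.74, limma adjusted p = 0.647, each probe set tested on its own). The first probe set ranged over 0.52 log2 units across the arrays and the second over 2.56.

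The genes whose pattern over the 4 arrays was closest to Mt1, by Euclidean distance of mean-centred log2 values, were Stx7 (0.035), Nrbp2 (0.042), Rin2 (0.055), Ahnak (0.057) and 1600012H06Rik (0.058). Closeness of this kind was common, since 459 of 8030 other genes lay within 0.25 of Mt1. No gene lay within 0.25 of Gsta4. Distances were not scaled to the range over the arrays, 3.68 log2 units for Gsta4 and 0.52 for Mt1, so these counts are not comparable. The nearest to Gsta4 were Plscr1 (1.35), the chemokine gene Ccl20 (1.68), Igfbp3 (1.78), Tmigd1 (1.84) and Taf7 (1.89). Plscr1 read 7.52 on the cKO set 2 array and 5.27 on the cKO set 1 array, against 6.55 and 5.51 on the WT arrays. Ccl20 read 8.95 and 7.14 on the cKO arrays, against 6.10 and 7.34 on the WT arrays.

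**Figure D3:**
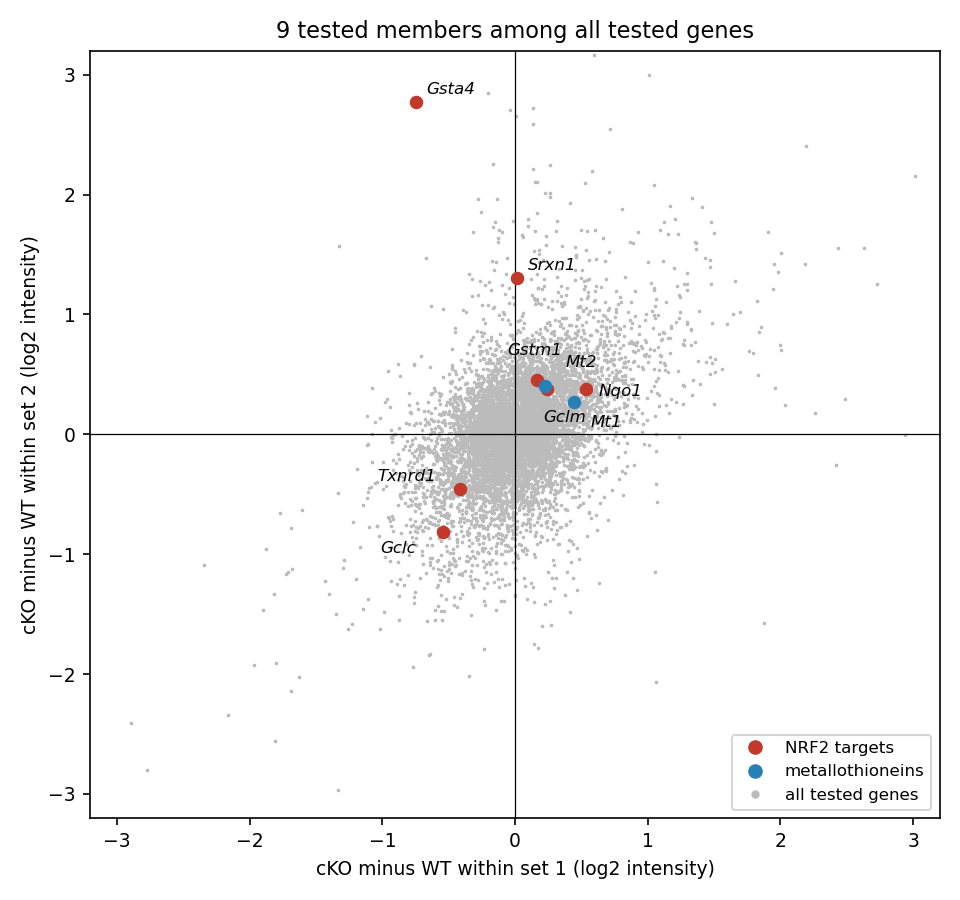
The cKO minus WT difference within set 1 (x axis) and within set 2 (y axis), both on the log2 scale, for 8031 tested genes in grey, NRF2 targets in red and metallothioneins in blue; 16 genes lie outside the axes. Most members sit inside the cloud of all genes, Gclc toward its lower left edge at -0.55 and -0.81, and Gsta4 apart at -0.75 and 2.77.

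Between the sets no member passed. limma called 0 of the 9 tested members at an adjusted p under 0.05 and 0 at an unadjusted p under 0.05, where 0.0% and 2.86% of all genes did (1.26% higher in set 2 and 1.61% lower). Only Gsta4 had both set 2 arrays above both set 1 arrays (11.1% of all genes did, 19.5% had both below, and 30.6% did not overlap in either direction), by 1.92 (SE 0.90, limma adjusted p = 0.999), and this rests on the cKO arrays, with 3.68 between sets in cKO and 0.16 in WT. For the other 8 the set 2 minus set 1 difference lay between -0.21 for Nqo1 and 0.16 for Mt1. That of Srxn1, -0.048, was the mean of 0.60 in cKO and -0.69 in WT. The intervals were wide, from -0.94 to 0.81 for Gclc and -0.42 to 0.75 for Mt1.

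The further lists are read against all tested genes, with a median of 0.029 and 26.7% apart and higher in cKO and 19.9% apart and lower. Their counts at an unadjusted p under 0.05 by limma are read against 8.37% of all genes higher in cKO and 5.79% lower. Of 10 listed regulators of the NRF2 pathway, 9 had a probe set and all 9 were above the dim limit, and none passed limma's test, adjusted or at an unadjusted p under 0.05. Their median difference was 0.28, and 4 had both cKO arrays above both WT arrays while 0 had both below. The list pools partners of NRF2 with Keap1, whose product holds NRF2 low, so its median is not a reading of NRF2 activity. Maff and Mafk, small MAF partners of NRF2, differed by 0.91 and 0.36, and Nfe2l1, a relative of NRF2, by 0.42. The other regulator with groups apart and higher, Bach1, was named after its values were seen and differed by 0.28. Keap1 differed by 0.45 with overlapping groups, at 7.96 and 8.38 on the cKO arrays of set 2 and set 1, against 7.45 and 7.98 on the WT arrays. Nfe2l2, which encodes NRF2 itself and was singled out after its values were seen, read 10.31 and 10.54 in cKO, against 10.56 and 10.11 in WT. Its groups overlapped. Maff differed by 1.73 within set 2 and 0.094 within set 1.

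Of 23 other NRF2 targets listed, 17 were tested and none passed limma's test, with 2 higher at an unadjusted p under 0.05. The median was 0.13, with 8 genes apart and higher in cKO and 3 apart and lower. Gpx2, an epithelial glutathione peroxidase, differed by 0.85 (SE 0.28, limma adjusted p = 0.298), the carboxylesterase gene Ces2g by 0.83 and Ephx1, microsomal epoxide hydrolase, by 0.66 (SE 0.19, limma adjusted p = 0.261). Gsr, which reduces oxidised glutathione, differed by -0.42, the same sign as Gclc and Txnrd1. Slc7a11, the cystine importer, lay below the dim limit on all 4 arrays.

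Of 26 further glutathione enzymes, 19 were tested, and none passed limma's test, with 2 higher at an unadjusted p under 0.05. The median was 0.14, with 8 genes apart and higher in cKO and 0 apart and lower. Mgst2 and Mgst3, membrane-bound transferases, differed by 0.65 (SE 0.17, limma adjusted p = 0.232) and 0.49, Glrx, glutaredoxin, by 0.37 and Mgst1 by 0.31. Mgst2 read 9.19 and 9.08 on the cKO arrays of set 2 and set 1, against 8.38 and 8.58 on the WT arrays. Among 13 listed superoxide and other thioredoxin genes, 10 were tested and none passed limma's test, with 2 higher at an unadjusted p under 0.05 and a median of 0.11. Of these, 3 were apart and higher in cKO and 1 apart and lower. Txnip, the inhibitor of thioredoxin, differed by 1.38 and Sesn1, sestrin 1, by 0.92, both with a limma adjusted p of 0.162. Txnrd2, the mitochondrial thioredoxin reductase, differed by 0.43, opposite in sign to the cytosolic Txnrd1, and Sesn2 by 0.36.

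Of 20 metal handling genes, 18 were tested and none passed limma's test, with 1 lower at an unadjusted p under 0.05. The median was 0.03, with 5 genes apart and higher in cKO and 5 apart and lower. Mt4, the metallothionein of stratified epithelium, differed by 0.75, at 9.32 and 9.37 on the cKO arrays of set 2 and set 1, against 7.98 and 9.20 on the WT arrays. Tfrc, the transferrin receptor that imports iron, differed by -0.63, and Slc40a1, the iron exporter ferroportin, by 0.55. The zinc importer gene Slc39a6 differed by 0.40. Mtf1, which encodes the zinc-sensing factor, and the zinc exporter gene Slc30a1, which answers to it, were named after their values were seen. They differed by 0.16 and -0.36 with overlapping groups.

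**Figure D4:**
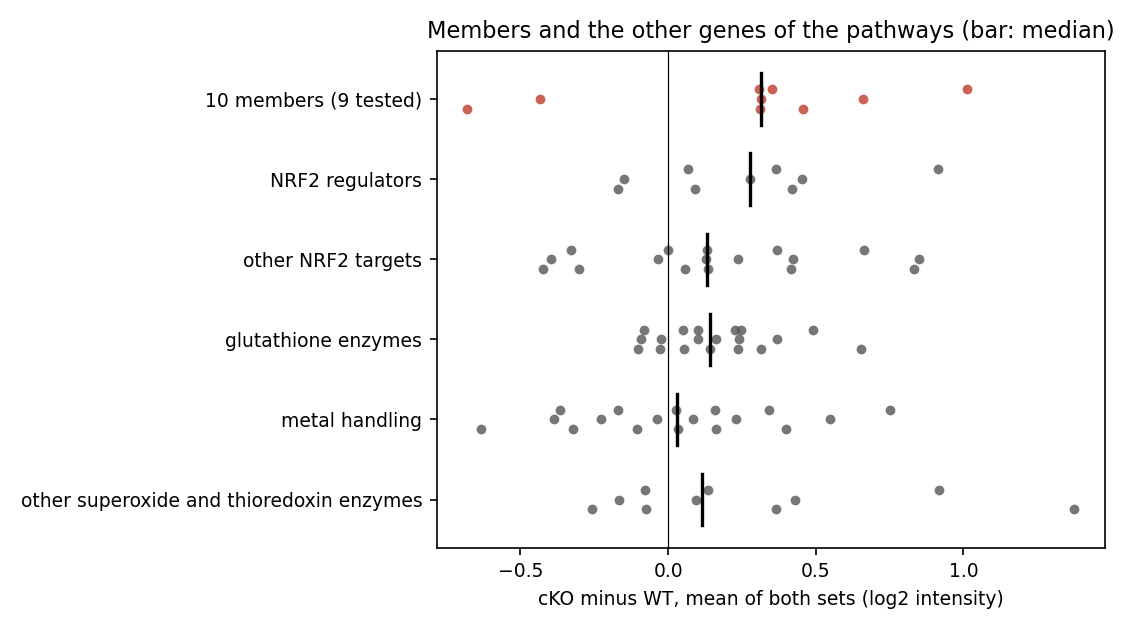
The cKO minus WT difference on the log2 scale, mean of both sets, for the tested members and the tested genes of 5 further lists, with 1 point per gene and a bar at each median. The member median is 0.31, the regulator median 0.28 and the metal handling median 0.03.

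Most endothelial markers were lower in cKO, and other cell types differed less or by array. The summed linear intensity of 12 endothelial markers was 271 and 269 on the cKO arrays of set 2 and set 1. On the WT arrays it was 2500 and 2659. Of the 5 tested, limma called 4 lower (Fabp4, Aqp1, Selp and Plvap). Those 4 lay below the dim limit on both cKO arrays, so they passed the filter on mean level through the WT arrays alone. The other tested marker, Egfl7, differed by -0.47 with overlapping groups. Pecam1, Kdr, Tek, Tie1 and Cldn5 of that list lay below the dim limit on all 4 arrays, and Cldn5 differed by 0.078. The sum of 9 fibroblast markers was 508 and 628 in cKO, against 1091 and 1171 in WT. The 4 tested, none called by limma, differed by -1.91 (Vim), -1.20 (Fn1), -0.42 (Dcn) and -0.14 (Col1a2). The other 5 were dim on all arrays. Of these, Col3a1 differed by -0.24, and Col1a1, Lum, Pdgfra and Pdgfrb by 0.24, 0.16, 0.19 and 0.021. The sum of 11 leukocyte markers was 324 and 353 in cKO, against 316 and 420 in WT, with 8 dim on all arrays. Of the 3 tested, none called by limma, Cd14 differed by -1.43, Cd74 by 0.58 and Csf1r by 0.23, all with groups apart. The 5 melanocyte markers with a probe set summed to 378 and 368 in cKO, against 346 and 257 in WT, with 2 dim on all arrays. All 3 fat cell markers with a probe set were dim on all arrays. The 6 suprabasal epidermal markers with a probe set summed to 24946 and 22227 in cKO, against 6931 and 20311 in WT, so that the WT set 2 array was low. Of the 9 tested members, 4 (Nqo1, Gclm, Srxn1 and Gstm1, 44.4%) had their lowest value on that same array, as did 39.6% of all tested genes. They were 4 of the 6 members (66.7%) with both cKO values above both WT values. The lowest value of those 6 must lie on a WT array, and that of Gclc and Txnrd1 on a cKO array. No all-gene share was taken for such genes alone. The lowest value also lay on the WT set 2 array for 5 of 9 regulators, 11 of 17 other NRF2 targets and 11 of 19 glutathione enzymes. It did so too for 8 of 18 metal handling genes and 3 of 10 superoxide and other thioredoxin genes. The part of any of these cells in the values of the members was not tested.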

How the data were processed

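Total RNA (Trizol) of sorted cells was made into biotin-labelled cRNA from 2 µg for Affymetrix arrays, as the labels' protocols state. In the table deposited by the authors, 22690 probe sets have a linear intensity on each of 4 arrays. RMA (background correction, normalisation between arrays, summary of probes) is named in the submitters' processing notes, with version and settings not given in the sources used here. Intensities ran from 5.29 to 25561 and were turned to log2. RMA gives no detection call. Probe sets with 1 gene symbol in the platform annotation (20380) were named, and 691 with several and 1555 with none were not. For 20351 of the named probe sets the gene identifier was found in RefSeq's GRCm38.p6 table. For genes with several probe sets the one of highest mean stood for the gene. Tests left out genes whose mean was under percentile 40 (log2 5.40, or 42.2 linear), and Xist and Y-linked genes.

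limma 3.58.1 in R 4.3.3 (lmFit, eBayes, all 4 arrays, no covariate) tested 8031 genes for cKO against WT and set 2 against set 1, with Benjamini-Hochberg adjustment at 0.05, and was tested on simulated data. Precision is limited by the number of arrays. Members, lists and rules were chosen with earlier results of these data known. The text names all members, up to 4 genes per further list with the largest difference, and the 5 nearest profiles of Mt1 and Gsta4. Both genotypes of a set carry 1 state label, so the set as a pairing block was used as an alternative. The main fit did not pair the arrays. Same-numbered arrays deviated together from their genotype's mean with r = 0.192 across genes. Alternatives were other filters, probe set rules, normalisations, a variance trend, the block, and leaving out each array. A comparison of cKO in set 2 with WT in set 1 was chosen after seeing the data. No coordinates of probe sets are given, because the files name no genome build.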

Additional observations from a re-analysis of the deposited data

Results flagged for a closer look

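Gsta4 moved in opposite directions in the 2 sets, with cKO minus WT at 2.77 within set 2 and -0.75 within set 1 on the log2 scale. The second Mt1 probe set (1451612_at) also did, at -0.75 within set 2 and 2.56 within set 1. With 1 array per genotype and set, the difference between the sets was not tested in either case. Groups of 2 arrays are too small to look for single outlying arrays.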

How the results depend on the processing

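No tested member passed limma's test under 11 of the 12 alternatives, 1 of which (the filter at percentile 60) left 7 members, without Srxn1 and Gsta4. Without the cKO set 1 array 1 member, Gsta4, was called, so the count ran from 0 to 1 with each array left out in turn, and the Gsta4 difference ran from -0.83 to 2.85. The direction of the other 8 tested members between genotypes was kept under each alternative that tested them. With the set as a replicate block 0 members were called, and the count of all genes was 83 against 7 (1.03% of genes). It was 28 with a variance trend and robust fit, 0 of 5733 with the filter at percentile 60 (816 at an unadjusted p under 0.05 by limma), and 2 (without WT set 2) to 16 (without cKO set 2) with each array left out. Between the sets the genotype as a block gave 1 gene against 0, and leaving out arrays gave 0, with 107 to 842 at an unadjusted p under 0.05 by limma. With each array left out, cKO minus WT ran from -0.78 to -0.58 for Gclc, -0.50 to -0.37 for Txnrd1, 0.31 to 0.60 for Nqo1, 0.28 to 0.35 for Gclm, 0.31 to 1.01 for Srxn1, 0.19 to 0.43 for Gstm1, 0.23 to 0.48 for Mt1 and 0.21 to 0.42 for Mt2. Mean probe sets gave 0.23 for Srxn1. The set 2 minus set 1 difference of each tested member other than Gsta4 turned sign when arrays were left out. It ran from -0.48 to 0.057 for Nqo1, -0.47 to 0.34 for Gclc, -0.19 to 0.19 for Gclm and -0.13 to 0.33 for Txnrd1. It was -0.70 to 0.60 for Srxn1, -0.32 to 0.13 for Gstm1, -0.056 to 0.38 for Mt1 and -0.079 to 0.32 for Mt2. Other probe sets gave 0.086 for Srxn1 and -0.37 for Mt1, and the mean of the Mt1 probe sets gave -0.10. The causes were not tested. The cKO array of set 2 against the WT array of set 1, chosen after seeing the data, gave -0.75 for Gclc, -0.33 for Txnrd1, 0.24 for Nqo1, 0.31 for Gclm, 0.61 for Srxn1, 0.21 for Gstm1, 2.93 for Gsta4, 0.52 for Mt1 and 0.44 for Mt2.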
